A study of Mus musculus with 8 samples.

Results

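The RSK kinases and the ERK cascade above them were examined in the left ventricles of 8 mice, as 8 genes of the 55487 counted. They comprised the ribosomal S6 kinase genes Rps6ka1, Rps6ka2, Rps6ka3 and Rps6ka6, which encode RSK1, RSK3, RSK2 and RSK4, and Rps6ka5, which encodes the related kinase MSK1. Upstream of these stood Mapk3, which encodes ERK1, and Map2k1 and Map2k2, which encode MEK1 and MEK2. The genes were taken by name, but the family was chosen by its KO against NLC values in these libraries, Rps6ka2 being among the genes called there. Every KO against control value of the 8 genes is therefore a description of these libraries. Where an adjusted p of the fit over all genes is printed for them, it says where the gene stood among all genes and supports nothing. All 8 passed the filter on low counts, Rps6ka6 at the lowest level.

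The controls, titled NLC, carry the genotype label wild-type, and the KO animals are labelled as GPR116-/- in myocytes only, GPR116 being another name of ADGRF5. Both groups are C57BL/6 at 12 weeks of age, with 4 animals each, of which 2 are male and 2 female. The sources used here name neither the promoter that drove the deletion nor any allele that the controls carry. Reads assigned to genes came to 25328784 in the shallowest library and 39615408 in the deepest. Levels are given in CPM, a gene's reads scaled to the size of its library. The targeted gene Adgrf5 ran from 218.2 to 257.0 CPM in the NLC hearts and from 203.0 to 239.8 CPM in KO, with an exact two-sided permutation p of 0.514 (smallest possible 0.0286, n = 4 each). Other ventricular cells also transcribe Adgrf5, so this level does not check the labels. Cardiomyocyte markers were abundant in all libraries (6 genes, summed 47100 to 58000 CPM in NLC and 50700 to 61600 CPM in KO). Atrial markers summed to 6000 CPM in NLC 4 and to 360 to 1440 CPM elsewhere in the series.

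In this cascade, receptors at the cell surface switch on RAS, RAS recruits the RAF kinases, RAF phosphorylates MEK, and MEK phosphorylates ERK. Active ERK docks on RSK and MSK and switches on their C-terminal kinase domain. The RSKs then phosphorylate cytoplasmic and nuclear substrates, while MSK1 acts mainly on chromatin and CREB. In cardiomyocytes RSK3 is known for being held at the scaffold mAKAP, the product of Akap6, and for its part in hypertrophic growth. Gq-coupled receptors, the class named in the series title, are among the known inputs to ERK in the heart.

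The RSK genes are paralogs, and their coding sequences are close enough to ask whether reads can be told apart. The stretch of Rps6ka2 around its longest run shared with another RSK is shown with its counterparts, 5′ to 3′ from the coding strand of GENCODE M21 transcripts (GRCm38), with capitals marking bases that differ from Rps6ka2.
Rps6ka2: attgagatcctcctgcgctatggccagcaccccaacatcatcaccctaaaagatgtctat
Rps6ka1: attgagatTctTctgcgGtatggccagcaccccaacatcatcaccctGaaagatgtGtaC
Rps6ka3: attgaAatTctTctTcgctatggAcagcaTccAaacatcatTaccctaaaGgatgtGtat
Rps6ka6: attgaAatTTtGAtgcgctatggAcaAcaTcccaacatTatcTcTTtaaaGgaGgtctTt
In these 60 bases, coding positions 1369 to 1428 of Rps6ka2, 6 bases differ in Rps6ka1, 10 in Rps6ka3 and 15 in Rps6ka6. The longest identical run was 29 bases between Rps6ka2 and Rps6ka1 and 38 bases between Rps6ka1 and Rps6ka3. The MEK genes were closer, with an identical run of 56 bases, shown with 8 bases on either side and capitals at the bases that differ.
Map2k1: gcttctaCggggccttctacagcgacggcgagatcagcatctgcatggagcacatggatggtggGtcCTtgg
Map2k2: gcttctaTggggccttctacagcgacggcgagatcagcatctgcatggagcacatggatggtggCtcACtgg
The sources used here do not give the read length. A read that lies within such a run would match both genes and would be left uncounted as multiply mapped.

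Rps6ka2 was the member called between the genotypes, and its groups, like those of Map2k2, did not overlap. Its level was 47.75, 60.74, 56.71 and 52.11 CPM in NLC 1 to 4 and 37.08, 37.11, 36.41 and 30.85 CPM in KO 1 to 4. All 4 KO libraries lay below all 4 controls, as they did for 3.03% of all tested genes. In whole ventricle, fewer cells of a type and less RNA per cell cannot be told apart. The means were 54.3 ± 5.63 and 35.4 ± 3.03 CPM (SD, n = 4 each), a log2 fold change of -0.62 (SE 0.0923, 95% interval -0.83 to -0.42). Rps6ka2 (ENSMUSG00000023809) lies at 7170115 to 7303315 on the plus strand of chromosome 17 of GRCm38. Of the 8 genes, Rps6ka2 was the 1 called at an edgeR adjusted p under 0.05, against 0.102% of all genes tested (0.0544% lower and 0.0476% higher in KO). It was also the last of the 15 called genes, with an adjusted p of 0.0460 against 0.0704 for the first gene beyond the threshold. Nearest outside among the members were Rps6ka3 at rank 87 (adjusted p 0.185) and Map2k2 at rank 105 (adjusted p 0.196). Each was under 0.05 in 2 of 17 alternatives, by DESeq2 (adjusted p 0.0143 and 0.019) and with no low count filter (edgeR adjusted p 0.00101 and 0.0226). Those settings called 148 and 621 of all genes.

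**Figure D1:**
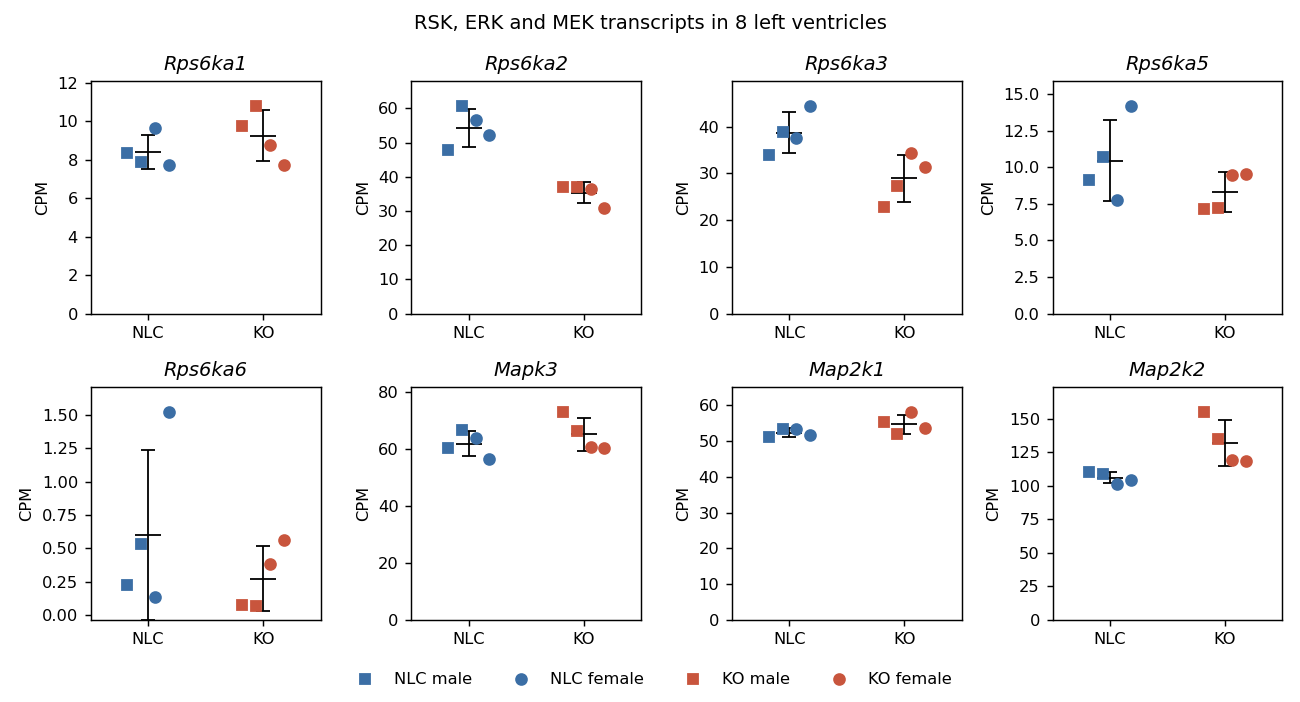
CPM (y axis) of the 8 genes, with NLC and KO on the x axis and one point per library (squares male, circles female), and the mean with SD as a bar. The Rps6ka2 panel shows the KO points at 30.85 to 37.11 CPM, below the controls at 47.75 to 60.74 CPM, and the Map2k2 panel shows the reverse order.

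Its place among the called genes depended on which libraries were kept and on the method. With each library left out in turn the log2 fold change of Rps6ka2 stayed between -0.70 and -0.56, and its edgeR adjusted p was under 0.05 in 1 of these 8 fits, without NLC 3 (0.0364). It was 0.054, 0.182 and 0.0708 without NLC 1, 2 or 4, and 0.172, 0.205, 0.12 and 0.12 without KO 1, 2, 3 or 4. With all libraries kept, the adjusted p was 0.0578 by limma voom and 3.07e-06 by DESeq2. It was under 0.05 by edgeR with RLE scaling (0.0474), upper quartile scaling (0.0484), no mitochondrially encoded genes (0.0435) and no low count filter (7.04e-09). DESeq2 and the fit with no filter called 148 and 621 of all genes. By edgeR it was 0.0544 with at least 1 CPM in 4 libraries, 0.0609 with no sex term and 0.0673 with the replicate number as a block.

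Rps6ka3, the gene of RSK2, was also at lower values in KO. It lies on chromosome X at 159210307 to 159368244. Its level was 33.92, 38.79, 37.65 and 44.44 CPM in NLC and 22.82, 27.22, 34.27 and 31.41 CPM in KO. KO 3 lay above NLC 1, so the groups overlapped by that one library. The log2 fold change was -0.43 (SE 0.096, 95% interval -0.64 to -0.22).

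Rps6ka1, the gene of RSK1 on chromosome 4 (133847290 to 133887797), did not share this direction. It was measured at 8.32, 7.87, 9.65 and 7.71 CPM in NLC and at 9.73, 10.8, 8.74 and 7.74 CPM in KO, and the groups overlapped. The log2 fold change was 0.13 (SE 0.123, 95% interval -0.14 to 0.41), and 0.06 to 0.24 with a library left out, lowest without KO 2 and highest without NLC 3. Exons of Rps6ka1 share 247 bases with Gm12977 on the opposite strand, and with the strand setting of the counting not given, reads of the 2 genes may not be separated there.

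Rps6ka6, the gene of RSK4 on chromosome X (111388192 to 111537959), was close to the limit of detection. It had 6, 13, 4 and 44 reads in controls and 3, 2, 11 and 15 reads in KO. NLC 4 held 44 of these reads at 1.52 CPM, whereas a count of 3 reads corresponds to 0.0793 to 0.122 CPM in these libraries. The log2 fold change of -1.26 (SE 0.68, 95% interval -2.77 to 0.25) was -0.42 without NLC 4 and -1.87 without NLC 3. NLC 4 was also the library with the most atrial and adipocyte marker RNA, at 6000 and 27.5 CPM, and the part of these cells in the Rps6ka6 value was not tested.

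Rps6ka5, the gene of MSK1 on chromosome 12 (100548439 to 100726983), was measured at 9.11, 10.7, 7.79 and 14.2 CPM in NLC and at 7.11, 7.19, 9.45 and 9.54 CPM in KO. NLC 1 and NLC 3 lay among the KO libraries and NLC 4 above all others. The log2 fold change of -0.34 (SE 0.167, 95% interval -0.71 to 0.03) was -0.17 without NLC 4 and -0.51 without NLC 3.

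Upstream, Map2k2 on chromosome 10 (81105915 to 81133975) was at higher values in KO. The MEK2 transcript stood at 110.0, 108.8, 101.1 and 104.2 CPM in NLC and at 154.8, 134.6, 119.3 and 118.4 CPM in KO. Each KO library lay above each control, and the KO males lay above the KO females. The log2 fold change was 0.31 (SE 0.071, 95% interval 0.15 to 0.47). Of the 8 genes, the groups did not overlap for 2, Rps6ka2 (lower) and Map2k2 (higher), against 6.25% of all tested genes (3.03% lower and 3.22% higher).

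For MEK1 and ERK1 the interval of the difference included 0. Map2k1, the gene of MEK1 on chromosome 9 (64185770 to 64253631), ran from 51.1 to 53.4 CPM in NLC and from 51.9 to 58.1 CPM in KO, with a log2 fold change of 0.06 (SE 0.0613, 95% interval -0.07 to 0.20). Mapk3, the ERK1 gene on chromosome 7 (126759601 to 126765819), ran from 56.4 to 66.7 CPM in NLC and from 60.2 to 72.8 CPM in KO, with a log2 fold change of 0.07 (SE 0.0706, 95% interval -0.09 to 0.23). With a library left out these values ran from 0.03 to 0.08 for Map2k1 and from 0.03 to 0.12 for Mapk3. Outside the 8 genes, Rps6ka4, which encodes MSK2, was at 0.10 (SE 0.085) and the scaffold gene Akap6 at -0.11 (SE 0.0773) on the same scale. Their intervals, -0.09 to 0.29 for Rps6ka4 and -0.28 to 0.07 for Akap6, both included 0, and with a library left out they ran from 0.04 to 0.17 and from -0.14 to -0.04.

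**Figure D2:**
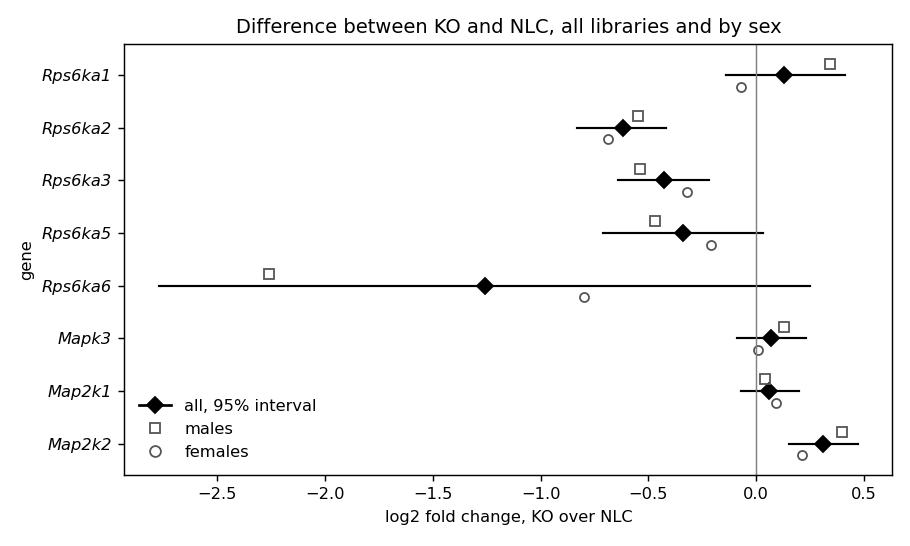
Log2 fold change of KO over NLC for the 8 genes (x axis), with diamonds and 95% intervals for all libraries and open squares and circles for males and females alone. The intervals of Rps6ka2, Rps6ka3 and Map2k2 lie away from 0, and male and female values of Rps6ka2 (-0.55 and -0.69) both lie below 0.

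Within each sex Rps6ka2 was lower in KO, at -0.55 (SE 0.13) in males and -0.69 (SE 0.131) in females. Rps6ka3 stood at -0.54 (SE 0.131) in males and -0.32 (SE 0.13) in females, and Map2k2 at 0.40 (SE 0.0921) and 0.21 (SE 0.0921). Rps6ka1 was at 0.34 (SE 0.153) in males and -0.07 (SE 0.153) in females. An interaction term tested whether the genotype difference itself varied with sex. By edgeR 0% of all genes were called, 1096 genes had an unadjusted p under 0.05, and DESeq2 called 15. None of the 8 genes passed, the smallest adjusted p over the members being 0.656 (edgeR), and 0 of the 8 had an unadjusted p under 0.05. In the submitters' library numbers both male KO libraries precede both male controls, so in males genotype and this order cannot be told apart.

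Sex itself played no part in the choice of the genes and could be tested. Both Rps6ka3 and Rps6ka6 are X-linked. Rps6ka3 ran from 22.82 to 38.79 CPM in the 4 males and from 31.41 to 44.44 CPM in the 4 females, with overlap. Males against females gave -0.28 on the log2 scale (SE 0.0959, edgeR adjusted p = 0.273). Rps6ka6 was at -1.65 (SE 0.689, edgeR adjusted p = 0.359), and at -0.88 without NLC 4, -2.24 without NLC 2 and -2.23 without NLC 3, where it passed (edgeR adjusted p = 0.0335). It also passed with no filter on low counts, at -1.68 (edgeR adjusted p = 0.0073). Map2k2 was at 0.19 (SE 0.071, edgeR adjusted p = 0.32), in the direction of higher levels in males. Of the 8 genes 0 were called between the sexes, against 0.299% of all genes (0.218% higher and 0.0817% lower in males), and 0 of the 8 had sexes that did not overlap, against 6.87%. An unadjusted p under 0.05 was found for 3 of the 8, the genes just given, against 12.8% of all genes. Rps6ka2 itself was at 0.07 (SE 0.092, 95% interval -0.14 to 0.27) between males and females, and at 0.01 to 0.14 with a library left out.

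Isoform abundance was then compared per length, as RPKM, which is the CPM divided by the length of the merged exons in kilobases. The ERK and MEK genes were the most abundant of the 8, with Mapk3 at 28.1 ± 2.29, Map2k2 at 21.0 ± 3.17 and Map2k1 at 15.8 ± 0.671 RPKM (SD over 8 libraries). Among the RSKs, Rps6ka2 and Rps6ka3 were the main forms at 4.49 ± 1.1 and 4.06 ± 0.816 RPKM, and Rps6ka1 followed at 2.07 ± 0.266 RPKM. Rps6ka5 was at 0.786 ± 0.193 RPKM. Rps6ka6 was at 0.0875 RPKM, lower than all but 1.5% of the genes tested, whereas Mapk3 exceeded 91.4% of them.

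**Figure D3:**
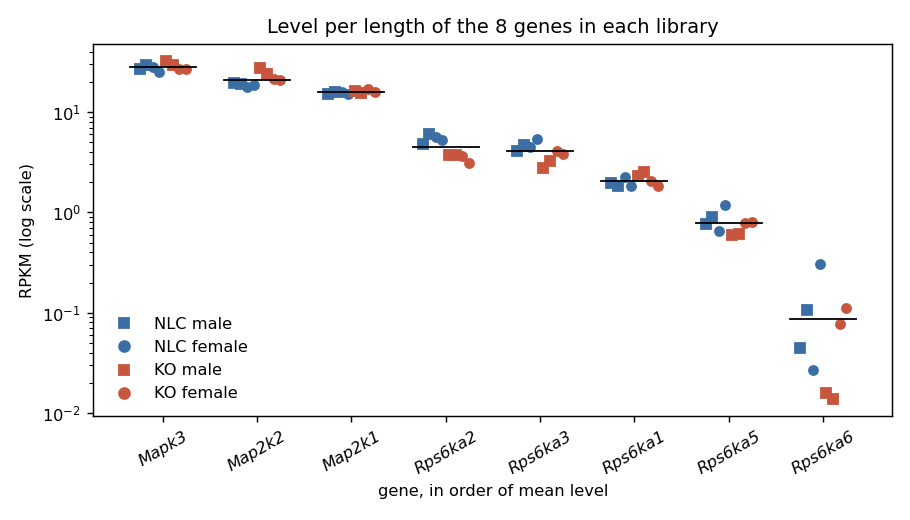
Level of the 8 genes in RPKM on a log axis, in the order of their means (black lines), with one point per library coloured by genotype and shaped by sex. MEK and ERK genes sit above 15 RPKM, Rps6ka2 and Rps6ka3 interleave near 4 RPKM, and Rps6ka6 spreads from 0.0138 to 0.304 RPKM.

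Of the 7 steps between neighbours in this order, 6 held in all 8 libraries. Each of the 6 had an exact two-sided sign-flip permutation p of 0.00781, the smallest that 8 libraries allow, and an adjusted p of 0.00911 over the 7 steps. The exception was Rps6ka2 over Rps6ka3, which held in 5 of 8 libraries with a mean log2 difference of 0.13 ± 0.268 (exact permutation p = 0.195, adjusted p = 0.195). Their ratio lay between 1.14 and 1.35 in the 4 males. In the females it was 1.26 in NLC 3 and 0.978, 0.886 and 0.819 in NLC 4, KO 3 and KO 4. The step from Map2k1 down to Rps6ka2 was 3.6-fold and that from Rps6ka5 to Rps6ka6 was 11.4-fold. The order came from the means of these same libraries, and the length used shifts a step alike in each library. The test therefore says only that a step held across libraries at the length used.

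The order changed with the length used at 2 places. With coding length or the longest transcript in place of merged exons, Map2k2 stood above Mapk3 (77.2 against 51.9 and 49.4 against 35.2 RPKM). This reversed step passed with both lengths, as Mapk3 over Map2k2 did with merged exons, so the test does not settle their order. Rps6ka2 stood above Rps6ka3 with each length, in a step that passed with these lengths and not with merged exons. With coding length Rps6ka5 and Rps6ka1 traded places, at 3.62 and 3.53 RPKM, in a step that did not pass (exact permutation, adjusted p = 0.922).

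The make-up of the RSK transcripts followed from these levels. Summed over Rps6ka1, Rps6ka2, Rps6ka3 and Rps6ka6, the level was 10.9, 12.7, 12.5 and 12.7 RPKM in NLC 1 to 4 and 8.76, 9.54, 9.9 and 8.8 RPKM in KO 1 to 4. Rps6ka2 made up 44.7% ± 2.8 of this sum in controls and 38.4% ± 3.13 in KO, with overlapping ranges of 41.2% to 47.9% and 35.1% to 42.4%. Rps6ka3 made up 38.1% ± 2.71 and 37.5% ± 5.62. The share of Rps6ka1 was 16.2% ± 2.1 in controls and 23.5% ± 3.25 in KO (SD, n = 4 each), and its ranges, 14.3% to 18.1% and 20.7% to 26.6%, did not overlap. This share is taken of a sum that was lower in KO (mean 12.2 RPKM in NLC and 9.25 RPKM in KO). The level of Rps6ka1 itself overlapped between the groups, so its share does not show more Rps6ka1 RNA in KO. Rps6ka2 stood at 2.45 to 3.29 times the level of Rps6ka1 in controls and at 1.47 to 1.78 times in KO. With coding length the Rps6ka1 share in controls was 7.59%. These shares rest on the same contrast by which the family was chosen and carry no test.

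**Figure D4:**
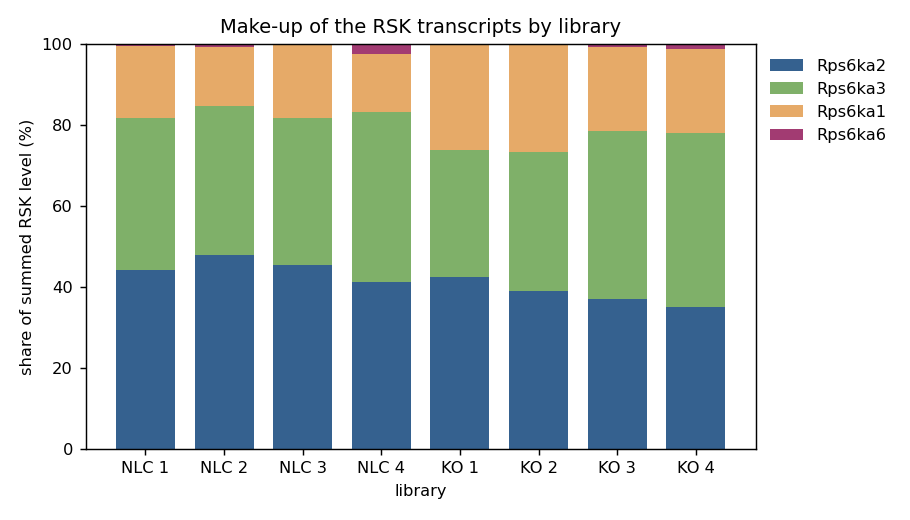
Share of each RSK gene in the summed RPKM of the 4 RSK genes (y axis, percent) for each library (x axis), as stacked bars. The Rps6ka1 segment is 14.3% to 18.1% in NLC and 20.7% to 26.6% in KO, and Rps6ka6 is 0.145% to 2.39%. The bars do not show the sum itself, which was lower in KO.

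The 8 genes divided by genomic span as they did by the sign of the log2 fold change. The intervals of Rps6ka1, Rps6ka5, Rps6ka6, Map2k1 and Mapk3 hold both signs, so the direction of those genes is not settled. The 4 with a negative log2 fold change in KO, namely Rps6ka2, Rps6ka3, Rps6ka5 and Rps6ka6, span 133.2 to 178.5 kb, and the 4 with a positive value span 6.2 to 67.9 kb. Over all tested genes the median log2 fold change also moved with span. It was 0.090 for the 4068 genes under 10 kb, -0.001 for 6659 genes of 10 to 50 kb, -0.071 for 2016 of 50 to 100 kb, -0.103 for 1221 of 100 to 200 kb and -0.108 for 722 longer genes. In the class of 100 to 200 kb, which holds these 4 RSK and MSK genes, 75.5% of genes had a negative value. Rps6ka2 at -0.62 lay among the lowest 2.95% of that class. The family was chosen by this same value, so the rank is a description and supports nothing. The part of span in the values of the members was not tested.

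**Figure D5:**
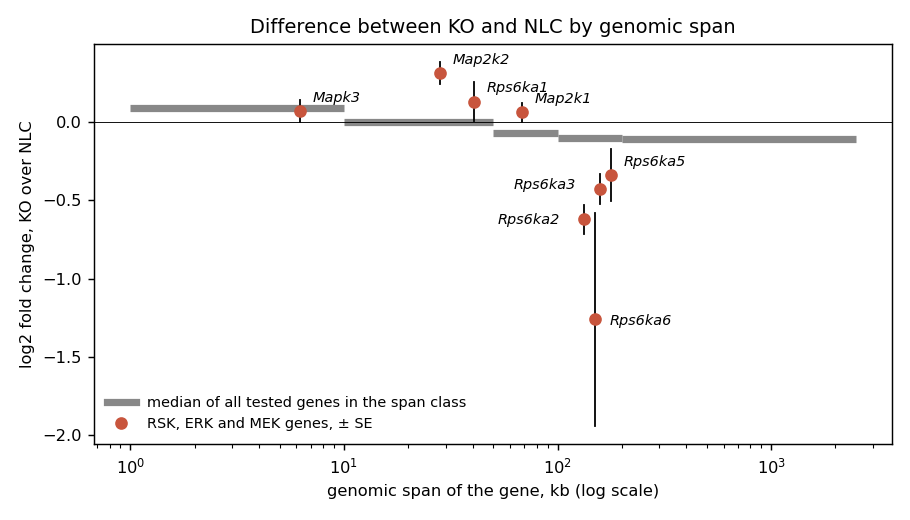
Log2 fold change of KO over NLC (y axis) against genomic span in kb (x axis, log scale) for the 8 genes (points, with SE), over the median of all tested genes in 5 span classes (grey bars, the outer classes being open-ended). The medians go from 0.090 to -0.108 as span grows, and the 4 members above 100 kb lie below the grey bar.

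Levels of other cell types were read beside these results. Endothelial markers summed to 878, 945, 923 and 777 CPM in NLC 1 to 4 and to 778, 774, 718 and 797 CPM in KO 1 to 4. NLC 1, 2 and 3 lay above every KO library, so these sums overlapped through NLC 4 alone. Fibroblast markers summed to 603 to 720 CPM in NLC and 537 to 741 CPM in KO. Pericyte and smooth muscle, macrophage, lymphocyte and red blood cell sums overlapped between the genotypes as well. Fast skeletal muscle markers were the list whose sums did not overlap, at 3.19 to 7.26 CPM in NLC and 7.41 to 10.8 CPM in KO, with Myh4 at 0 in all libraries. Of its 5 markers 3 passed the filter on low counts, and NLC 4 at 7.26 CPM lay close to KO 1 at 7.41 CPM. The part of cell make-up in the RSK values was not tested.

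The rest of the pathway was then read from 8 lists of 132 genes in all, of which 126 were tested. By edgeR 0 of the 126 were called in either direction, against 0.102% of all genes. At an unadjusted p under 0.05 there were 7 higher and 12 lower, or 15.1% against 11.9% of all genes. The median log2 fold change of the 126 was -0.032 against -0.005. A negative value was found for 70 of the 126 and for 51% of all genes. That share moved with genomic span, from 32.2% under 10 kb to 75.5% at 100 to 200 kb. The counts of signs given below for each list carry no test.

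Near the top of the cascade, the adaptor and RAS list had 12 of 16 genes with a negative value and a median of -0.07. Its smallest p-values belonged to the small GTPase genes Rap1b at -0.17 (SE 0.0613) and Rap1a at -0.15 (SE 0.072), and to the exchange factor gene Rasgrp3 at -0.20 (SE 0.0867). In the RAF and scaffold list 8 of 14 were negative (median -0.06). Braf, which encodes a RAF kinase, was at -0.18 (SE 0.0841), and Pebp1, whose product restrains RAF signalling to MEK, was at 0.16 (SE 0.069). None of these 5 genes passed, with an edgeR adjusted p of 0.35 or above. Exons of Braf share 146 bases with Ndufb2 on the opposite strand, so its value carries the same limit as that of Rps6ka1.

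Brakes on RAS and ERK gave 14 of 22 negative values (median -0.05). Spred1 and Spred2, inhibitors that act on RAS and RAF, were at -0.42 (SE 0.119) and -0.25 (SE 0.0846) (edgeR adjusted p = 0.266 and 0.344). Dusp6, an ERK phosphatase that ERK itself induces, was at -0.26 (SE 0.112, edgeR adjusted p = 0.398). By sex Dusp6 was at -0.03 (SE 0.121) in males and -0.50 (SE 0.123) in females (interaction, edgeR adjusted p = 0.648). The groups overlapped, with KO 1 at 21.9 CPM the highest of all libraries. In the list of ERK-induced transcripts, which shares Dusp6 and 4 other genes with the brakes, 8 of 18 were positive and 10 negative (median -0.03). Its members with the smallest p went both ways. Ier3, an immediate early gene, was at 0.46 (SE 0.102) and Myc at 0.52 (SE 0.188), while the ephrin receptor gene Epha4 was at -0.58 (SE 0.151). None of the 3 passed with all libraries (edgeR adjusted p = 0.185 for Ier3, 0.35 for Myc and 0.226 for Epha4). Ier3 and Epha4 each passed in 3 of 17 alternatives. These were without NLC 3 (edgeR adjusted p = 0.0342 and 0.0357), by DESeq2 (0.0116 and 0.0203) and with no low count filter (edgeR, 0.000222 and 3.14e-07). Those settings called 50, 148 and 621 of all genes, against 15 in the edgeR fit. Epha4 was at 60.97 CPM in NLC 4 and at 35.62 to 47.40 CPM in the other controls. Its log2 fold change was -0.40 without NLC 4 and -0.71 without NLC 3. Ier3 ran from 0.39 without KO 1 to 0.56 without NLC 3.

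Substrates and partners of the RSKs were near the median of all genes. The substrate list had 12 of 18 positive values (median 0.04), with the death promoter gene Bad at 0.24 (SE 0.0957), the CREB relative Atf1 at -0.15 (SE 0.0665) and the glycogen synthase kinase gene Gsk3b at -0.25 (SE 0.111). In the mAKAP list 11 of 18 were negative (median -0.03). Pdpk1, which encodes the kinase PDK1 that phosphorylates RSK in its activation, was at -0.23 (SE 0.0947), the adenylyl cyclase gene Adcy5 at 0.26 (SE 0.11) and the calcineurin gene Ppp3cb at -0.18 (SE 0.0936). Among kinases related to RSK, 8 of 16 were positive (median -0.02), including Mknk1, another kinase switched on by ERK, at 0.19 (SE 0.0723) and Rps6kb2, which encodes the S6 kinase S6K2, at 0.27 (SE 0.112). Among other MAP kinases and their activators 8 of 14 were negative (median -0.01), with Mapk6 at -0.30 (SE 0.121), Mapk4 at -0.35 (SE 0.142) and the JNK gene Mapk8 at -0.16 (SE 0.0845). Each of these 11 genes had an edgeR adjusted p of 0.361 or above. With a library left out, Adcy5 ran from 0.15 (without NLC 3) to 0.35, Gsk3b from -0.32 to -0.15 (without KO 1), Rps6kb2 from 0.16 (without NLC 2) to 0.34 and Ppp3cb from -0.27 (without NLC 3) to -0.13. Rps6kb2 was at 0.54 in males and -0.00 in females (interaction, edgeR adjusted p = 0.648). Opposite-strand genes share exonic bases with Rps6kb2 (1224 with Ptprcap and 45 with Coro1b), Bad (524 with Gpr137), Mknk1 (260 with Gm29434) and Mapk4 (258 with Gm9925).

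Across the 8 libraries, the genes most like Rps6ka2 in log2 CPM were Ccnj (Pearson r = 0.984), Klhl34 (0.958), N4bp1 (0.946), Stard4 (0.945) and Steap4 (0.944), out of 12125 genes compared. The libraries include both genotypes, so a gene that differs between them in the same direction scores high by that alone. Ccnj, which encodes a cyclin, was at 6.74 ± 0.246 CPM in NLC and 5.52 ± 0.34 CPM in KO. Its log2 fold change was -0.29 (SE 0.105) and did not pass (edgeR adjusted p = 0.35). Ccnj was picked by its likeness to Rps6ka2, so this difference supports nothing.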

How the data were processed

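Each library came as one deposited file of raw counts by Ensembl gene. The tools named per the submitters' processing notes are STAR, HTSeq and DESeq2, and the build is GRCm38. The sources used here give no versions, annotation release, strand setting or read length. Per the labels' protocols, stranded TruSeq mRNA libraries were made from total RNA. Of all tallied reads 16.8% to 20.3% were multiply mapped and stayed out of gene counts.

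Symbols, spans and lengths came from GENCODE M21 (GRCm38), which named 55227 identifiers. The tests ran in edgeR 4.0.16 under R 4.3.3. The filter filterByExpr by genotype left 14695 genes, scaled by TMM. KO against NLC and male against female came from 1 quasi-likelihood fit with both terms, and the interaction and within-sex values from a fit of 4 means, 1 for each combination. Benjamini-Hochberg adjustment covered all genes (threshold 0.05). RPKM used a pseudocount of 0.01 on the log2 scale. The fits were tested on simulated data. Members and lists were chosen with earlier results of these data known. The text names the 8 members, Adgrf5, Rps6ka4, Akap6, the 3 list genes with the smallest p, the 5 genes most correlated with Rps6ka2 and its 3 nearest tested genes on either side. Some genes under this rule are not reported here. Alternatives used DESeq2 1.42.0, limma 3.58.1 (voom), other scalings, filters, lengths and left-out libraries. Replicates are biological per the labels. No 2 libraries of a group were alike within sampling noise (chi-square per degree of freedom 15.3 to 41.7). Limits from low counts cover counting error only.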

Additional observations from a re-analysis of the deposited data

Results flagged for a closer look

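Within the KO group, the Rps6ka2 value of KO 4 lay apart from the other 3 animals, at 30.8 CPM against 36.4 to 37.1 CPM. The gap to its nearest neighbour was 0.888 of the range of the group, above Dixon's 95% critical value for 4 samples. Of 16 groups checked (8 genes in each genotype) this was the 1 found. Chance flags about 1 group in 20, so 1 flag among 16 groups is close to what chance gives. Without KO 4 the log2 fold change of Rps6ka2 was -0.56 (edgeR adjusted p = 0.12).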

How the results depend on the processing

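The direction of the KO against NLC log2 fold change held for each of the 8 genes in all alternatives run, and Rps6ka2 passed in 6 of 17 (log2 fold change -0.70 to -0.56, adjusted p 7.04e-09 to 0.205). The number of genes called between KO and NLC, 15 in the edgeR fit, was 148 by DESeq2, 621 with no low count filter, 6 with no sex term and 0 to 50 with each library left out in turn. With the replicate number as a block it was 0 by edgeR (1717 at an unadjusted p under 0.05), with Rps6ka2 at an adjusted p of 0.0673. Leaving out NLC 1, NLC 2, KO 2 or KO 3 gave 0, and leaving out NLC 3 gave 50. The numbers share no stated origin, and same-numbered libraries correlated at 0.25, 0.09, -0.21 and 0.09 in their deviations from the group means, so the block was not used as a pairing. Genes called between the sexes numbered 44, and 232 by DESeq2, 742 with no low count filter and 16 to 176 with a library left out. The interaction count of 0 was 15 by DESeq2, 243 with no filter and 0 to 8 with a library left out. The cause of these shifts was not tested. Neighbouring levels passed in 6 of 7 steps, in 6 with each library left out and in 7 with the longest transcript. Neighbours were taken in the order of each setting, which put Map2k2 above Mapk3 with coding length and with the longest transcript. With coding length the share in controls was 7.59% for Rps6ka1 and 55.0% for Rps6ka2, and with the longest transcript 55.1% for Rps6ka2 and 29.3% for Rps6ka3. With at least 1 CPM in 4 libraries Rps6ka6 was not tested. Depth limits Rps6ka6, which had 2 to 44 reads per library.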

Other observations

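The tested genes nearest to Rps6ka2 on chromosome 17 were read as values, with no test. On the side before it, Tagap1, Rsph3b and Ezr lie 209.0, 221.4 and 387.3 kb away, with log2 fold changes of 0.08 (SE 0.077), 0.25 (SE 0.082) and 0.24 (SE 0.109). On the side after it, Fndc1, Tagap and Rsph3a lie 435.3, 622.7 and 642.3 kb away, with values of 0.09 (SE 0.108), 0.21 (SE 0.39) and 0.18 (SE 0.0935). Tagap, at about 1 CPM, changed sign with the library left out (-0.18 to 0.44) and was at -0.17 in females. No tested gene overlaps Rps6ka2. The targeted gene Adgrf5 lies on the same chromosome, at 43360451 to 43459557.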
